A study of Mus musculus with 6 samples.

Results

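The cyclins that drive cells from G1 into S phase, their kinases, the transcription factor E2F1 and the retinoblastoma protein were followed at the transcript level in control and CNOT3-depleted mouse embryonic fibroblasts (MEFs). The set holds 10 genes, Ccnd1, Ccnd2, Ccnd3, Ccne1, Ccne2, Cdk2, Cdk4, Cdk6, E2f1 and Rb1, chosen by symbol from the 18193 genes that the array annotation names, and every probe set with exactly 1 of these symbols was taken. That gave 29 of 45037 probe sets. All 10 genes were measured, and each had at least 1 probe set whose signal at 0 h reached the median of the arrays. The MEFs were primary cells from embryos with floxed CNOT3 alleles, although the sample labels call the control genotype wild type. Control MEFs received a control retrovirus and CNOT3-depleted MEFs (labelled CNOT3KD) a retrovirus that expresses Cre, and both were selected in puromycin for 2 days in medium with serum. Both cultures were then left untreated (0 h) or given actinomycin D (Act. D), a blocker of transcription, for 6 or 12 h, so the signal that is left over time reads the decay of existing mRNA. Total RNA of each of the 6 conditions was hybridized to 1 array.

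CNOT3 is a subunit of the CCR4-NOT complex, which shortens the poly(A) tails of mRNAs and so starts their decay. In G1, growth signals raise the D-type cyclins, which bind CDK4 or CDK6, and these kinases phosphorylate the retinoblastoma protein. Phosphorylated retinoblastoma protein releases E2F factors such as E2F1, and E2F then switches on genes for S phase, among them the E-type cyclins that activate CDK2. Fibroblasts that leave the cycle for lack of growth factors or after DNA damage are held at this step, with the CDK inhibitors as the brake.

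With 1 array per condition there is no spread between replicates, so every comparison is a description with no error and no p-value, and neighbouring levels in any order cannot be told apart beyond an unknown spread. The deposited values are MAS5 signals, linear hybridization intensities per probe set, with nearly equal trimmed means on the 6 arrays (494 to 497). A percentage of signal left is therefore relative to the other transcripts on the array and can pass 100% for a transcript that decays more slowly than most. Since these are bulk samples, fewer cells of a type and less RNA per cell cannot be told apart. The targeted gene Cnot3 read 436, 193 and 198 in control MEFs, against 239.6, 128 and 82.9 after depletion, at its brighter probe set, and 204, 201 and 279 against 227, 90.7 and 92.6 at the other. It had 1.82-fold less signal in CNOT3-depleted MEFs at 0 h at the first and 1.11-fold more at the second, and where either probe set lies in the gene, inside or outside the deleted part, is not known here. All 14 fibroblast markers on a fixed list were at or above the median at 0 h, with summed signals of 137487 to 234297 in control and 151165 to 162334 in CNOT3-depleted MEFs. At 0 h 1 of the 14 (Postn) was higher by over 1.5-fold after depletion. Over all genes at or above the median 12.4% were, and the counts of markers here stand beside that share. Markers of other cell types also differed between the cultures. Of 10 leukocyte markers 8 were at or above the median and 3 of these (Cd68, Tyrobp and Cd14) were higher by over 1.5-fold after depletion, with a summed signal over the 10 of 2652 against 3936 at 0 h (2652 to 5559 in control, 3936 to 5413 in CNOT3-depleted MEFs over time). Of 8 epithelial markers 4 were at or above the median and 3 of these (Krt8, Krt18 and Krt19) were higher, with sums of 1017 to 1275 and 2437 to 2872. Of 6 endothelial markers 1 was at or above the median, with sums of 242 to 340.3 over all 6 arrays and Tie1 near background on each. Of 6 skeletal muscle markers 3 were at or above the median and 1 (Actc1) was higher, with sums of 468 to 752. The part of these markers in the results was not tested.

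The promoters bear on these genes because E2F regulates several of them. RefSeq (GRCm38.p6) windows from 250 bases before to 50 bases after an annotated transcription start were at hand for 6 of the 10 genes, as 7 windows, with 2 for Ccnd3. Each was searched on both strands for the E2F-type words TTCCCGC or TTGGCGC, neither of which contains the other. Of 32851 windows of the same length in the table, 2236 (6.81%) held a match. Among the 6 genes Cdk2 alone had a match, 2 copies of the first word on the opposite strand, with first bases at -140 and -10 relative to the start, while Ccnd3, Ccne1, Cdk4, Cdk6 and E2f1 had none in these windows. The window of Cdk2 (chr10:128705002-128705301, minus strand, 64.7% G and C) is shown with the matches in capitals, next to that of Ccne1 (chr7:38107441-38107740, minus strand, 76.0% G and C), which codes for its cyclin partner and holds neither word, so all of it is in lower case.
Cdk2: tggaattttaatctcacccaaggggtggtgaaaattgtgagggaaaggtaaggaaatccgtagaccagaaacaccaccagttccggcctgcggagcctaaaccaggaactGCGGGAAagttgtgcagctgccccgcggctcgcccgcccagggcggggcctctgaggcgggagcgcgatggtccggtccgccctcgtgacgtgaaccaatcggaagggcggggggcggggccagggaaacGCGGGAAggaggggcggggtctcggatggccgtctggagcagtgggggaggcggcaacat
Ccne1: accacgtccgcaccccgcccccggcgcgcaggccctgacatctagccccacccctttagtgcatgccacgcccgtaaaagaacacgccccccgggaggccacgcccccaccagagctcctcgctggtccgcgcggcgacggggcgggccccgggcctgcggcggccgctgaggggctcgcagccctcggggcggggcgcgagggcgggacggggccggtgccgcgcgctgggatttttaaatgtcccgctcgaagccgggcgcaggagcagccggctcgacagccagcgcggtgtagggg
A match is a description of the sequence, and the absence of one says only that these words are not in the window. Starts outside the 7 windows were not searched. The E2f1 window, at 1 annotated start, need not hold the main promoter of E2f1. Both genes were within 1.5-fold between the cultures at 0 h, and both had more of their signal left at 12 h in CNOT3-depleted MEFs, as given with their values.

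Before Act. D, 9 of the 10 genes differed by less than 1.5-fold between the 2 cultures, and the exception was Ccne2, which codes for cyclin E2 and was 1.82-fold lower in CNOT3-depleted MEFs. Each gene was read at its brightest probe set, and the fold is the CNOT3-depleted over the control signal. The median log2 fold of the 10 was -0.13, beside 0.08 over the 11062 genes whose signal reached the median. None of the 10 was more than 1.5-fold higher, against 12.4% of those 11062 genes, and 1 was more than 1.5-fold lower, against 6.77%. These shares leave the counts of 0 and 1 among 10 genes near the background. Scaling to ribosomal protein probe sets would move every log2 fold at 0 h by 0.18, and the small differences of Ccnd1, Ccnd2, Ccne1, Cdk4 and E2f1 change sign under it, while those of Ccne2, Cdk2 and Cdk6 stay below 0. Under Act. D the genes parted into 3 patterns in the deposited values. The D-type cyclins, Cdk4 and E2f1 gained relative signal in control MEFs and gained little or less in CNOT3-depleted MEFs. Ccne2 and Cdk2 lost more than 50% of their signal in control MEFs and kept nearly all of it in CNOT3-depleted MEFs. Ccne1, Cdk6 and Rb1 lay between, with less signal at 12 h than at 0 h in control MEFs and a signal near or above the 0 h level after depletion. For Cdk6 this held at the brightest probe set alone. Its other 2 probe sets gained in control MEFs (113% and 189% left at 12 h) and lost in CNOT3-depleted MEFs (74.9% and 63.8%).

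**Figure D1:**
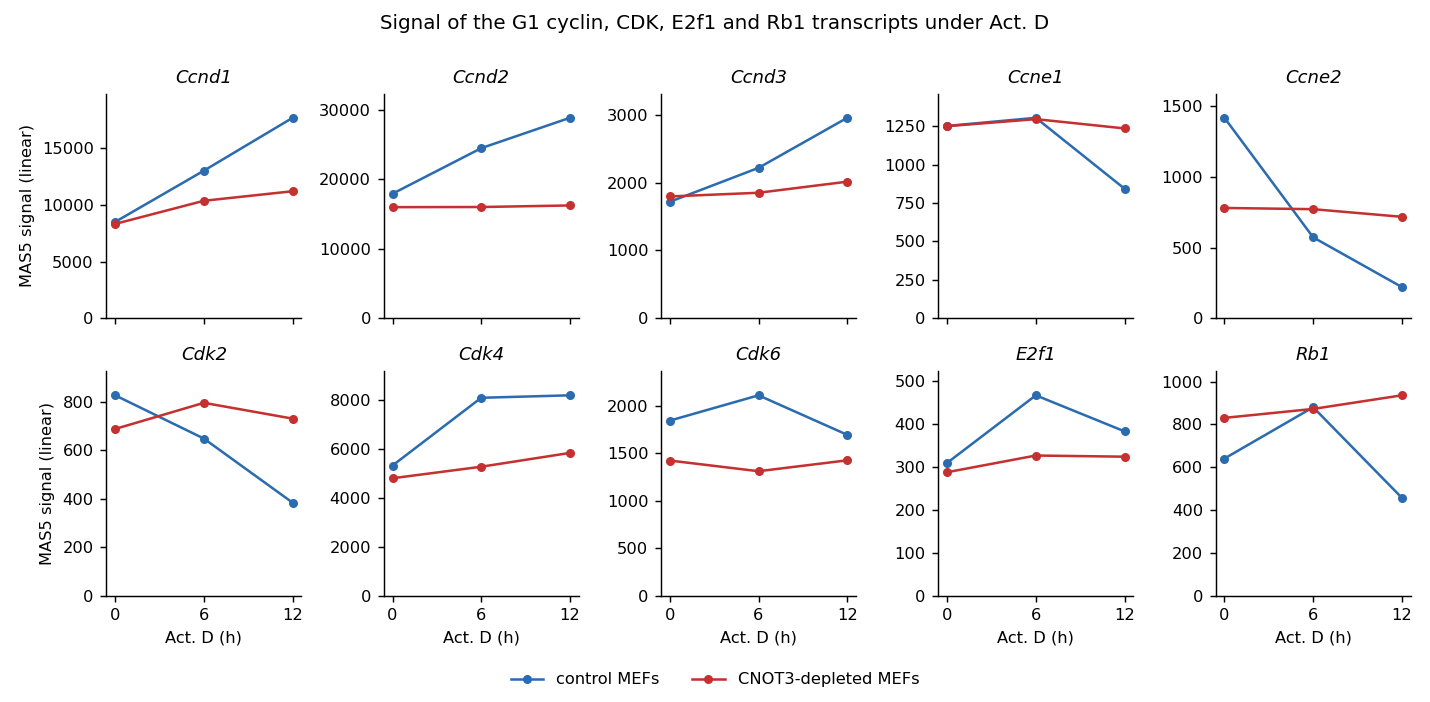
MAS5 signal (linear axis from 0) of each of the 10 genes at its brightest probe set against hours of Act. D, control cultures in blue, depleted cultures in red; each point is 1 array and there are no error bars. The CNOT3-depleted signal is the higher one at 12 h for Ccne1, Ccne2, Cdk2 and Rb1 and the lower one for the other 6 genes, and the red lines of most genes are flatter than the blue ones.

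Cyclin E2 binds and activates CDK2 at the entry into S phase. At the brightest probe sets its transcript had the lowest fraction left at 12 h of the 10 genes in both cultures. Dimmer probe sets of Cdk6 and E2f1 went lower in CNOT3-depleted MEFs, to 63.8% and 83.2%. The single Ccne2 probe set read 1418, 572 and 220.4 in control MEFs at 0, 6 and 12 h, and 780.3, 772 and 718 in CNOT3-depleted MEFs. The control signal was therefore the higher one before Act. D and the lower one at both later times. In control MEFs 40.3% was left at 6 h and 15.5% at 12 h, in CNOT3-depleted MEFs 98.9% and 92.0%. The fraction left was 2.45 times that of control at 6 h and 5.92 times at 12 h. At 12 h the signal itself was higher in CNOT3-depleted MEFs, by 1.70 on the log2 scale, after being lower by the log2 fold of -0.86 at 0 h. The log2 stabilization, the mean over both times of the log2 ratio of the fractions left, was 1.93, at the 93.4th percentile of the 11062 genes. Its fold at 0 h lay at the 2.61th percentile. Ccne2 was the 1 gene of the 10 that met the rule for a stabilized transcript (a fraction left that is 2 or more times the control fraction at 6 h and again at 12 h, and a 6 h to 0 h ratio between 0.5 and 2 in CNOT3-depleted MEFs), beside 10.6% of all genes. With the cultures exchanged in this rule none of the 10 met it, beside 0.479% of all genes. A single probe set carries this gene, so no second reading of it exists on these arrays.

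Cyclin E1, the close relative of cyclin E2, had a transcript with a weaker pattern. Ccne1 read 1253, 1305 and 844 in control MEFs, against 1251, 1297 and 1236 in CNOT3-depleted MEFs, a fold of 0.999 at 0 h. The cultures were level at 0 and 6 h and parted at 12 h, when 67.3% was left in control and 98.8% in CNOT3-depleted MEFs. Its log2 stabilization was 0.27 (0.93 with ribosomal protein scaling and 0.02 with quantile normalization). This probe set has the suffix that marks probes which may match other transcripts, and the second, without that suffix, gave 0.12, with 89.1% left in control MEFs and 120.2% after depletion at 12 h. Both probe sets thus held more of their signal at 12 h in CNOT3-depleted MEFs, by 1.47 and 1.35 times. The log2 stabilization of Ccne2 was the larger of the pair by a wide margin, 1.93 against 0.27, and the difference was not tested.

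CDK2, the partner of the E-type cyclins, had a transcript that moved in opposite directions in the 2 cultures in the deposited values. Cdk2 read 827, 648 and 384 in control MEFs, against 688, 796 and 731 in CNOT3-depleted MEFs. Control signal was lower at each later time, while CNOT3-depleted signal was above its own 0 h value at both. At 12 h 46.4% was left in control and 106% in CNOT3-depleted MEFs. The fraction left was 1.48 times that of control at 6 h, below the 2 times that the rule for a stabilized transcript asks for, and 2.29 times at 12 h. The log2 stabilization was 0.88, at the 75.5th percentile (1.53 with ribosomal protein scaling and 0.51 with quantile normalization). The fall in control MEFs at 6 h depends on the scaling. Relative to the medians of the control arrays (77.4 at 0 h and 54.9 at 6 h), that signal was above its 0 h level at 6 h. A second Cdk2 probe set was under the 25th percentile of signal on all 6 arrays (none above 3.51).

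The D-type cyclins, which couple growth factor signals to CDK4 and CDK6, had another course in the deposited values. Ccnd1 read 8498, 13021 and 17687 in control MEFs, against 8323, 10364 and 11206 in CNOT3-depleted MEFs. Ccnd2 read 17930.1, 24494 and 28868 in control MEFs, against 15995, 16019 and 16242 in CNOT3-depleted MEFs. Ccnd3 read 1719, 2220.2 and 2959 in control MEFs, against 1798, 1852 and 2016 in CNOT3-depleted MEFs. In each gene the cultures were close at 0 h, with folds of 0.979, 0.892 and 1.05, and the control signal was the higher one at 6 and at 12 h. At 12 h the signal left in control MEFs was 208% for Ccnd1, 161% for Ccnd2 and 172% for Ccnd3, and in CNOT3-depleted MEFs 135%, 102% and 112%. Ccnd2 was thus nearly level over 12 h in CNOT3-depleted MEFs, and Ccnd1 still gained. Log2 stabilization was -0.46 for Ccnd1, -0.56 for Ccnd2 and -0.47 for Ccnd3, and these signs turned to 0.19, 0.10 and 0.18 when the arrays were scaled to ribosomal protein probe sets, a scaling that moves every gene by 0.65. Quantile normalization, which does not move all genes alike, gave -0.08 for Ccnd1 and -0.04 for Ccnd2, so the lower fraction left nearly vanished for both, and -0.51 for Ccnd3.

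The probe sets of Ccnd1 and of Ccnd2 gave the same order of the cultures within each gene. All 3 probe sets of Ccnd1 had a fold under 1 at 0 h (0.870 to 0.979) and a log2 stabilization of -0.50 to -0.22. All 7 of Ccnd2 did too, with folds of 0.465 to 0.934 and a log2 stabilization of -0.71 to -0.28. The fold of 0.465 came from the dimmest Ccnd2 probe set, which read 636, 911 and 1160.2 in control MEFs, against 296, 395 and 392 in CNOT3-depleted MEFs and was the 1 reading of the gene past the 1.5-fold size. The other 6 were within 1.5-fold. Of the 3 Ccnd3 probe sets the brightest had the opposite order at 0 h, with a fold of 1.05. The other 2 were below the median at 0 h, with signals of 4.17 to 60.6 and a log2 stabilization of -2.83 and 1.11. Probe sets of a gene match different stretches of its transcripts, and their positions were not used here.

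**Figure D2:**
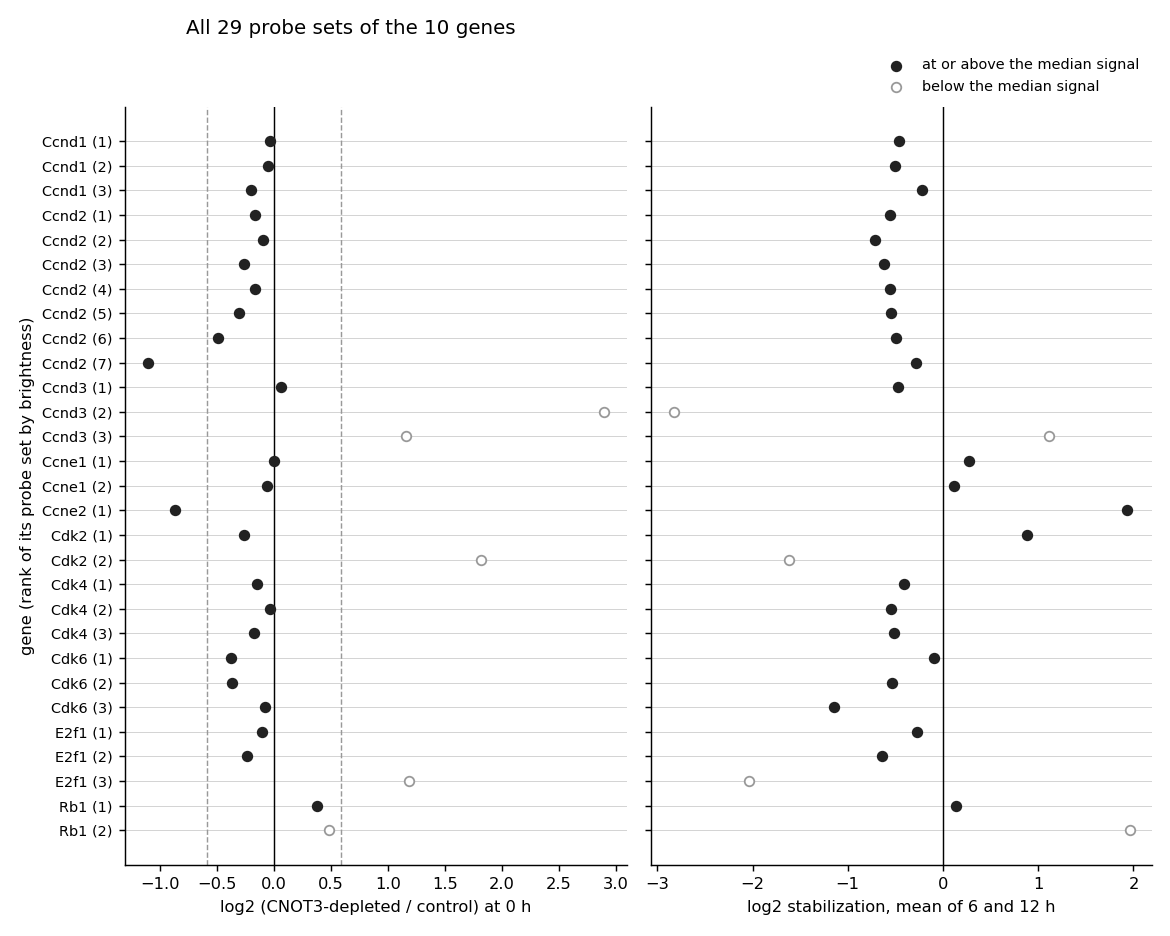
All 29 probe sets of the 10 genes, 1 row each and ordered within a gene by brightness, with the log2 fold at 0 h on the left (dashed lines at 1.5-fold) and the log2 stabilization on the right (log2 axes). Filled points are the 24 probe sets whose 0 h signal reached the median and open points the other 5. Of the filled points, 22 lie left of 0 in the left panel. Many are repeat readings of a gene on the same arrays (7 are of Ccnd2), so they are not 22 separate decreases. All filled points but that of Ccne2 and the dimmest of Ccnd2 lie between the dashed lines. The median log2 fold at 0 h over all genes was 0.08, and the share of them left of 0 was not counted. The filled points of Ccnd1, Ccnd2, Cdk4, Cdk6 and E2f1 lie left of 0 in both panels, with the scaling of the deposited values. Ribosomal protein scaling moves all points right, by 0.18 and 0.65, which brings several of the 22 past 0.

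CDK4 and CDK6 are the kinases that the D-type cyclins activate. At their brightest probe sets their transcripts differed from each other mainly in the control culture. Cdk4 read 5314, 8081 and 8181 in control MEFs, against 4795, 5266 and 5829 in CNOT3-depleted MEFs, a fold of 0.902 at 0 h. Its control signal was higher than that of CNOT3-depleted MEFs at all 3 times, by 1.11-fold before Act. D and by 1.53-fold at 6 h. The 3 Cdk4 probe sets had folds of 0.885 to 0.976 at 0 h and a log2 stabilization of -0.54 to -0.41. As for Ccne1, the brightest has the suffix of probes which may match other transcripts. The second, without that suffix, gave a fold of 0.976 and a log2 stabilization of -0.54. The value of the brightest probe set was -0.41, and it turned to 0.25 with ribosomal protein scaling and was -0.18 with quantile normalization. Cdk6 read 1847, 2113 and 1697 in control MEFs, against 1425, 1313 and 1428 in CNOT3-depleted MEFs, a fold of 0.772 at 0 h. Its control signal was also the higher one at all 3 times, with the widest gap at 6 h (1.61-fold). At 12 h 91.9% was left in control and 100.2% in CNOT3-depleted MEFs, and the log2 stabilization was -0.09 (0.56 with ribosomal protein scaling and -0.12 with quantile normalization).

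The Cdk6 probe sets disagreed in size and in the order of the cultures by fraction left at 12 h. That fraction in CNOT3-depleted MEFs was 1.09 times that of control at the brightest probe set. It was 0.66 times at the second and 0.34 times at the dimmest. The second read 1526, 1617 and 1730.1 in control MEFs, against 1187, 905 and 889 in CNOT3-depleted MEFs, with a log2 stabilization of -0.54. The dimmest read 101, 123 and 191 in control MEFs, against 95.9, 70.5 and 61.2 in CNOT3-depleted MEFs, with a log2 stabilization of -1.14. With the deposited scaling control was the higher culture in all 9 pairs of readings of Cdk6, which come from 3 probe sets on the same 6 arrays. Ribosomal protein scaling, which moves every log2 fold at 0 h by 0.18, would bring that of the dimmest (-0.08) above 0. The time courses differed between probe sets. At 12 h 91.9% to 189% was left in control and 63.8% to 100.2% in CNOT3-depleted MEFs.

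E2F1 activates S phase genes, its own among them, and retinoblastoma protein holds it in check. E2f1 read 309.6, 467 and 383 in control MEFs, against 288, 327 and 324 in CNOT3-depleted MEFs, a fold of 0.930 at 0 h. The control signal was the higher one at each time, with 151% and 124% left in control and 114% and 113% in CNOT3-depleted MEFs. The log2 stabilization was -0.27, 0.38 with ribosomal protein scaling and -0.69 with quantile normalization. A second probe set read 235, 304 and 335 in control MEFs, against 199.6, 183 and 166 in CNOT3-depleted MEFs, with a log2 stabilization of -0.64. In that reading the CNOT3-depleted signal was lower at each later time, unlike at the brightest one. Its dimmest probe set was below the median at 0 h, at 9.50 in control and 21.6 in CNOT3-depleted MEFs.

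Rb1 codes for the retinoblastoma protein, the brake on E2F, and was the 1 gene other than Ccnd3 with a higher signal in CNOT3-depleted MEFs at 0 h. It read 641, 881 and 457 in control MEFs, against 831, 873 and 936 in CNOT3-depleted MEFs, a fold of 1.30. The cultures met at 6 h and parted at 12 h, when 71.4% was left in control and 113% in CNOT3-depleted MEFs. The fraction left at 12 h was 1.58 times that of control, after 0.765 times at 6 h, and the mean over both times was 0.14 on the log2 scale. Neither the size nor the sign of that mean was stable, with 0.79 under ribosomal protein scaling, 1.05 with the median over its probe sets and -0.26 under quantile normalization. The second Rb1 probe set was below the median at 0 h and read 2.30 to 31.0.

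Read by what was left at 12 h at their brightest probe sets, the 10 transcripts were spread widely in control MEFs and closely in CNOT3-depleted MEFs. The lowest in control MEFs was Ccne2 with 15.5%, followed by Cdk2 (46.4%), Ccne1 (67.3%), Rb1 (71.4%), Cdk6 (91.9%), E2f1 (124%), Cdk4 (154%), Ccnd2 (161%), Ccnd3 (172%) and Ccnd1 (208%). In CNOT3-depleted MEFs the range was 92.0% for Ccne2 to 135% for Ccnd1. Ccne2 and Ccnd1 were thus the ends of the order in both cultures. Over the 24 probe sets whose 0 h signal reached the median, the CNOT3-depleted range was wider, 63.8% (Cdk6) to 160.6% (Ccnd1). The median of the 10 was 108% in control MEFs and 109% after depletion at 12 h (133% and 104% after 6 h), beside 72.8% and 95.1% over the 11062 genes (87.0% and 97.6% at 6 h). The following size rules were chosen after the values had been seen. Under 50% was left at 12 h for 2 of the 10 in control MEFs (Ccne2 and Cdk2), beside 38% of all genes, and for 0 of the 10 in CNOT3-depleted MEFs, beside 16.8%. The fraction left at 12 h was higher by more than 1.5-fold after depletion for 3 of the 10 (Ccne2, Cdk2 and Rb1), beside 36.3% of all genes. It was more than 1.5-fold lower for 3 of the 10 (Ccnd1, Ccnd2 and Ccnd3), beside 20.3%.

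**Figure D3:**
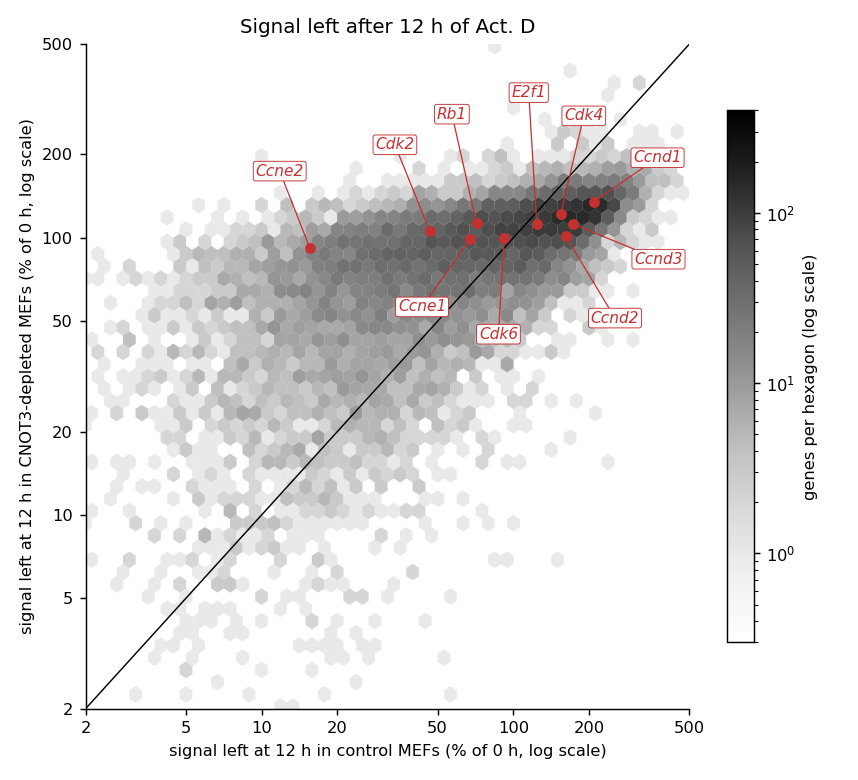
Signal left after 12 h of Act. D as a percentage of 0 h, control MEFs on the x axis and CNOT3-depleted MEFs on the y axis (both log scales, 2% to 500%), with all 11062 genes counted as grey hexagons shaded by their number and the 10 genes as red points; 64 genes fall outside the axes. The line marks equal fractions. At their brightest probe sets Ccne2, Cdk2, Rb1, Ccne1 and Cdk6 lie above it and the other 5 below it. The red points span 15.5% to 208% along x and 92.0% to 135% along y.

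The time courses were compared by the Euclidean distance between log2 signals centred on their mean over the 6 arrays. Among the 10 genes the closest pairs were Cdk4 and Ccnd2 (0.28), E2f1 and Cdk4 (0.32), and Ccnd3 and Ccnd1 (0.32). Cdk2 lay closest to Ccne1 (0.45), and the farthest pair was Ccne2 and Ccnd1 (2.84). Over 11393 other genes, those nearest to Ccne2 were Cdc45 (0.37), Ezh2 (0.38) and Mtmr10 (0.39), and 12 genes lay within 0.5 of it. Every other member had far more genes at that distance, from 327 for Rb1 to 1529 for Ccnd3. The nearest to Cdk2 were Trdmt1, Ints13 and Las1l (0.12 to 0.16), and the nearest to Ccne1 were Slc35b4, Adipor2 and Ipo11 (0.09 to 0.12). For Ccnd1 they were Fam3c, Pls3 and Acat1 (0.08 to 0.09), for Ccnd2 Tacc1, Lrp1 and Mmd (0.09 to 0.10), and for Ccnd3 Os9, 4930402H24Rik and Lonp1 (0.07 to 0.10). Those of Cdk4 were Pcbp2, Rac1 and Atp5g2 (0.10 to 0.12), and those of Cdk6 were Tmem116, Gmcl1 and Bmi1 (0.16 to 0.19). E2f1 lay nearest to Vps37a, Krtcap2 and Stk39 (0.09 to 0.12), and Rb1 to Elovl4, Ptpra and Mcu (0.15 to 0.20). With 6 points per gene such likeness is common, as the counts within 0.5 show.

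The other genes of the pathway were taken from fixed lists of 62 genes, of which 60 were named on the arrays. Over all 11062 genes 12.4% were higher, 6.77% lower and 10.6% stabilized, and the counts of each list stand beside these shares. CDK inhibitors, the proteins that hold G1 kinases inactive, had 7 of 7 genes at or above the median, with 2 more than 1.5-fold higher at 0 h (Cdkn1a and Cdkn2b) and 1 lower (Cdkn2c). Cdkn1a, which codes for p21, was 1.71-fold higher in CNOT3-depleted MEFs, with 24.6% left at 12 h in control and 96.0% in CNOT3-depleted MEFs, and was the 1 stabilized gene of the list. Its fraction left at 6 h was 2.002 times that of control, at the limit of the rule. With scaling to the median the 1 stabilized gene was Cdkn1b instead. Among 9 other pocket proteins and E2F and DP factors at or above the median, 3 were lower (E2f3, E2f7 and E2f8), 1 was higher (Tfdp2) and 1 was stabilized (E2f7), and E2f3 was within 1.5-fold with ribosomal protein scaling. With quantile normalization the 1 stabilized gene was E2f8 in place of E2f7. Of 15 genes for the activation of CDKs and the turnover of G1 regulators none was past 1.5-fold at 0 h and 4 were stabilized (Cdk7, Mnat1, Wee1 and Cul1), 11 with ribosomal protein scaling, under which 24.95% of all genes were. The count stayed at 4 with quantile normalization and with scaling to the median, but without Mnat1. Usp2 took its place in the first and Cdc25a in the second. Cdk7, the kinase that activates CDK2 and CDK4, had 5.00% left at 12 h in control and 51.6% in CNOT3-depleted MEFs.

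The E2F target genes of S phase, the step that the 10 genes control, were also read at 0 h. Of 20 at or above the median, 9 were more than 1.5-fold lower (Mcm5, Tk1, Cdc6, Cdc45, Pola1, Prim1, Ccna2, Mybl2 and Uhrf1) and none was higher, against 1 of 10 for the G1 genes and 6.77% of all genes. With ribosomal protein scaling 6 were lower, without Mcm5, Prim1 and Mybl2, beside 3.62% of all genes. Their median log2 fold was -0.45. E2f1 itself, at a log2 fold of -0.11, was not past that size, and neither was Rb1. Of the 20, 6 were stabilized (Cdc6, Cdt1, Orc1, Cdc45, Ccna2 and Mybl2), beside 10.6% of all genes. Ccna2, which codes for the S phase cyclin A2, had a fold of 0.555, with 13.0% left at 12 h in control and 119% in CNOT3-depleted MEFs, the same order of the cultures as Ccne2. For Cdc6, a loader of the replicative helicase, the control signal at 12 h was near background, so at most 3.13% was left there, beside 42.6% in CNOT3-depleted MEFs. Of 19 E2F targets with a promoter window, 11 held at least 1 of the 2 words searched, beside 2105 of the 27025 genes with a window in the whole table (7.79%). The list was made of E2F targets, so this count describes their sequences and is no result of the arrays. Among 6 mitotic genes 1 was lower (Ccnb2) and 2 were stabilized (Cdk1 and Plk1), beside 6.77% and 10.6% of all genes, and 1 (Plk1) was stabilized with scaling to the median. The median log2 stabilization was 0.46 for the E2F targets, 1.62 for the mitotic genes, 0.88 for the CDK inhibitors, 0.77 for the other pocket proteins and E2F factors and 1.16 for the genes of activation and turnover, beside -0.18 for the 10 G1 genes and 0.13 over all genes, and ribosomal protein scaling adds 0.65 to each. Quantile normalization gave 0.43, 1.44, 0.41, 0.40 and 0.93 for the lists in that order, beside -0.10 for the 10 G1 genes and -0.01 over all genes. No test of a difference between these lists was possible.

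**Figure D4:**
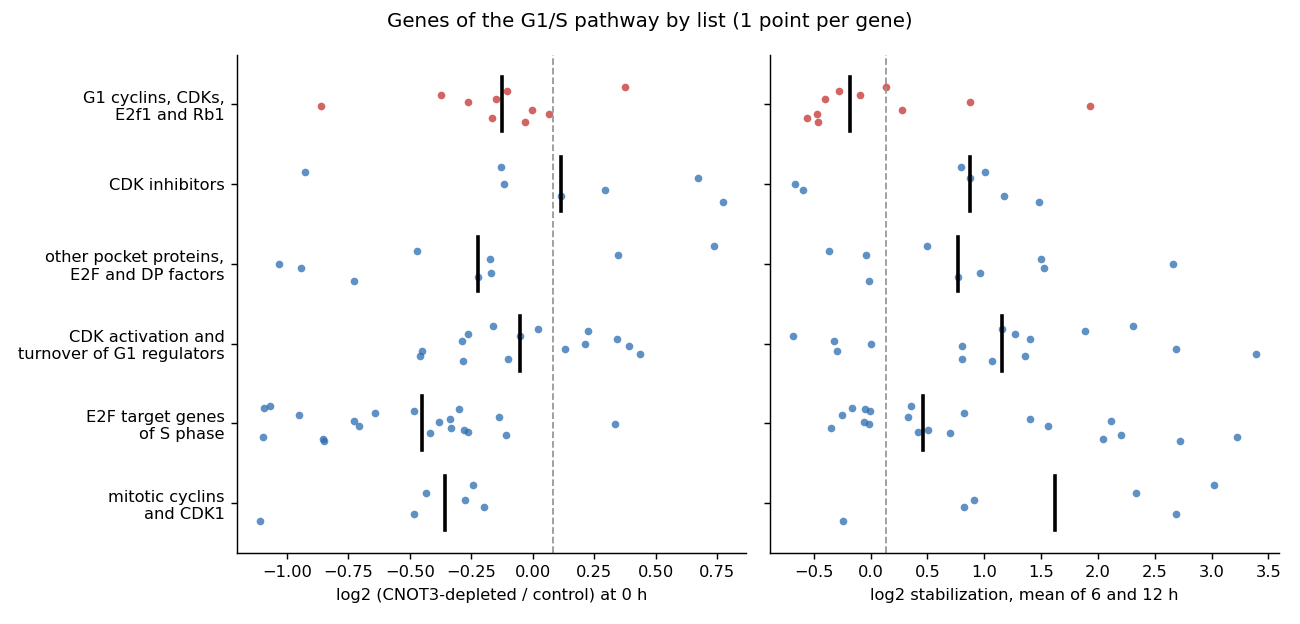
Each point is 1 gene whose 0 h signal reached the median, in its list (rows), with the log2 fold at 0 h on the left and the log2 stabilization on the right; black bars are list medians and dashed lines the medians of all 11062 genes. The 10 G1 genes (red) have a median of -0.13 on the left and -0.18 on the right, and the medians of the 5 other lists on the right are 0.46 to 1.62, all with the deposited scaling.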

How the data were processed

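Signals came from 6 Affymetrix arrays, 1 per condition, grouped by the sample labels. The deposited values are linear signal intensities per probe set that the authors computed with MAS5 (version and scaling target not given in the sources used here). No genome build of the arrays is named, so no probe coordinates are given. Probe sets were named from the platform annotation: 34945 list 1 gene, 932 several and 9160 none, and all 10 genes matched RefSeq by Entrez identifier. A floor of 1 was applied and the scaling was left as deposited. The brightest probe set, by its mean log2 over the arrays, stood for a gene, and the 11062 genes whose mean at 0 h reached the median of all probe sets (72.9) were counted. The 25th percentile of each array was the limit of background. The steps ran in Python 3.11.15 with numpy 2.4.6 and pandas 2.3.3 and were tested on simulated data. The alternatives were 3 other scalings, a floor at the 25th percentile, other probe set choices and other fold sizes. The members and lists were chosen with earlier results of these data known. Genes named were the 10 members, the 3 genes nearest to each in time course, and list genes past a size rule. Cdk7, Cdkn1a, Ccna2 and Cdc6 were picked as examples after their values were seen.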

Additional observations from a re-analysis of the deposited data

Results flagged for a closer look

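Cdk2 was singled out because its deposited signal was below its 0 h value at both later times in control MEFs and above it at both in CNOT3-depleted MEFs. The log2 stabilization was 0.88 (1.53 with ribosomal protein scaling and 0.51 with quantile normalization). Relative to the array medians the control signal at 6 h was not below its 0 h level. With 1 array per condition the difference between the cultures was not tested.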

How the results depend on the processing

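With 1 array per condition, no array could be left out and no test, error or interval could be given. No paired analysis was possible because each condition has 1 array. Over the alternatives run, 42 of 46 counts and list medians were close to the values given (counts within 1.5 times, medians within log2 of 1.5), as were 121 of 140 values of single genes. This tally does not measure robustness, because some outcomes were fixed by the alternative itself. The floor at the 25th percentile left the brightest probe set of each member unchanged. Scaling to the median moved all genes alike, by 0.09 at 0 h and 0.05 in log2 stabilization, inside the limit. Ribosomal protein scaling moved them by 0.18, inside it, and by 0.65, past it. The number of stabilized members was 2 (Ccne2 and Cdk2) with ribosomal protein scaling, beside 24.95% of all genes. The number higher at 0 h was 2 (Ccnd3 and Cdk2) when a gene was read as the median of its probe sets, beside 13.1% of all genes. It was 1 (Cdk2) with the brightest probe set of plain suffix, beside 12.9%. Both counts came through probe sets below the median signal. The number lower at 0 h was 0 with a 2-fold size. The log2 stabilization of Cdk2 was -0.37 with the median over its probe sets and -1.62 with its plain-suffix probe set, which is near background on all 6 arrays, so those values rest on a reading without signal. The counts of stabilized genes moved by over 1.5 times in 4 of the 5 other lists under some scaling, an alternative chosen after the data were seen. With ribosomal protein scaling they were 4 CDK inhibitors, 4 other pocket and E2F factors, 11 genes of activation and turnover and 4 mitotic genes, beside 24.95% of all genes. For Ccne2 the log2 stabilization ranged from 1.29 (6 h alone) to 2.58 (ribosomal protein scaling). The share of higher among genes past 1.5-fold at 0 h was 64.7%, and 86.0% with ribosomal protein scaling, 76.0% with scaling to the median, 55.2% with the median over probe sets and 65.3% with quantile scaling. The 5 of 29 probe sets below the median signal set no level.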
